A study of Rattus norvegicus with 12 samples.

Results

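Iron carriers, ferritin and heme oxygenases were examined through 9 genes, namely *Tf*, *Tfrc*, *Slc11a2*, *Fth1*, *Ftl1*, *Aco1*, *Cp*, *Hmox1* and *Hmox2*. All probe sets annotated to these symbols were taken, which gave 13 of the 15923 probe sets on the Affymetrix RAE230A array. The study compared neurons that are vulnerable to oxidative stress (VUL) with neurons that are resistant to it (RES), under basal conditions. The VUL group held 6 arrays, 3 from the hippocampal CA1 pyramidal cell layer and 3 from the cerebellar granule (CbG) cell layer, and the RES group held 6 arrays, 3 from the hippocampal CA3 pyramidal cell layer and 3 from frontal cortex, taken in layers IV to VI (CTX). All groups came from untreated 6-month-old rats of the Fisher 344/BN F1 hybrid. The regions were captured from each animal, and the numbers 1 to 3 of the biological replicates were read as rats. The cells were lifted from frozen sections by laser capture microdissection, which takes stained cells together with the tissue that touches them, and their RNA was amplified in 2 cycles.

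Iron enters most cells when transferrin (*Tf*), the iron carrier of blood and brain fluid, binds the transferrin receptor (*Tfrc*) and is taken up, after which the divalent metal transporter *Slc11a2* moves the metal out of the endosome. Iron that is not used is stored in ferritin, a shell of heavy (*Fth1*) and light (*Ftl1*) chains, and *Aco1* is an aconitase that, without its iron-sulfur cluster, binds the mRNA of *Tfrc* and of the ferritins as iron regulatory protein. Ceruloplasmin (*Cp*) oxidizes iron as it leaves cells, and the heme oxygenases, inducible *Hmox1* and constitutive *Hmox2*, release it from heme. In the brain, oligodendrocytes are a main site of *Tf* synthesis, and free iron drives the Fenton reaction, which makes hydroxyl radicals from hydrogen peroxide.

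The promoters of *Tf* and *Tfrc*, the carrier and its receptor, and of *Hmox2*, the heme oxygenase that could be tested, are shown because the 4 regions differed in these members by an F test over 10 arrays. That F test also passed for 60.8% of all probe sets tested, and with the arrays as labelled it passed for none of these members. The RefSeq table for the build GRCr8 matched 6 of the 9 genes with 8 start sites. *Fth1*, *Ftl1* and *Hmox1* were not among them. The 250 bases before the annotated start are given from 5′ to 3′ on the strand of the gene, for *Tf* at chr8:112695377-112695626 (minus strand), for *Tfrc* at chr11:81690319-81690568 (minus strand) and for 1 of the 2 starts of *Hmox2* at chr10:11337613-11337862 (minus strand). Capitals mark matches, on either strand, to ACGTG (the core to which hypoxia-inducible factors bind), TGACNNNGC (the antioxidant response element), TATAAA (the TATA box), CCAAT (which nuclear factor Y binds) or GGGCGG (the GC box).
*Tf*: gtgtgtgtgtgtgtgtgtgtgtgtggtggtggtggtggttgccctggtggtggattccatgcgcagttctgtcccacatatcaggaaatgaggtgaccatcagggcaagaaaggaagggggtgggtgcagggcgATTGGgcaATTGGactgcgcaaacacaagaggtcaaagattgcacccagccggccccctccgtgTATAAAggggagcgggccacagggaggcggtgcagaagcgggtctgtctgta
*Tfrc*: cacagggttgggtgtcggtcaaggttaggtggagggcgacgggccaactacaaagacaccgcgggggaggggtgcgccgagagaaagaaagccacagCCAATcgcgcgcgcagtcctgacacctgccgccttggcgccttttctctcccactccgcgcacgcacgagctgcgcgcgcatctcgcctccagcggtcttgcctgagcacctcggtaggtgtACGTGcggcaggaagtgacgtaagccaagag
*Hmox2*: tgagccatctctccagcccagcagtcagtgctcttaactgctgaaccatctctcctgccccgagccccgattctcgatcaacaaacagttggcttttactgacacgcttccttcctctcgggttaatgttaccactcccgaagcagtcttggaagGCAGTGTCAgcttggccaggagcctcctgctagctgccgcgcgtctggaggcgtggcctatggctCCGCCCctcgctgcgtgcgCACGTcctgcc
The *Tf* window held TATAAA, which starts 52 bases before the annotated start, and 2 matches to CCAAT on the other strand. The *Tfrc* window held ACGTG at 31 bases and CCAAT at 153 bases before the start. The *Hmox2* window held TGACNNNGC at 95 bases, GGGCGG at 30 bases and ACGTG at 11 bases before the start, all on the other strand, and the window of the other *Hmox2* start held 0 matches to the 5 motifs. Of the 33469 promoters in the table, 16.6% held ACGTG in their 250 upstream bases, 10.1% held TGACNNNGC, 12.9% held TATAAA, 34% held CCAAT and 30.5% held GGGCGG. A match describes the letters only.

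Levels are given as the deposited MAS5 signal, a linear intensity that the authors scaled to 1 target in every array. Levels of different probe sets are not comparable with each other. The array medians lay between 144.5 and 198.75, with 185.85 to 198.75 in the 3 CTX arrays and 187.1 in CbG replicate 1. The CA3 and CbG arrays of rat 3 went against their labels. The GABA receptor subunit *Gabra6*, which marks cerebellar granule neurons, was at 15.4 in the array labelled CbG and at 2567.6 in that labelled CA3, while *Nrgn*, a marker of forebrain neurons, was at 6450.7 and 49.2 in these arrays. The counts of calls, and VUL minus RES for each member that was tested, are therefore given in 3 arrangements. These are the 12 arrays as labelled, the 10 arrays without these 2, and the 12 arrays with the 2 labels exchanged. Some other differences are given over the 10 arrays only. CbG replicate 2 also stood apart. Its log2 ratio of 3′ over 5′ signal for the beta-actin control was 6.52, against 3.85 to 5.35 in the other 11 arrays, and it had the highest summed signal of 8 astrocyte markers (46170.8, against 11027.3 to 39737.2) and of 3 Purkinje cell markers (18446.6, against 6948.0 in CbG replicate 1 and 299.3 to 1527.9 in the other 10).

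Log2 signals, centred on each array's median, were fitted in limma, with the rats as blocks and 1 mean per region. A difference counted as called at a Benjamini-Hochberg adjusted p under 0.05, over all probe sets tested, and at least 1.5-fold. This held for VUL minus RES, CA1 minus CA3 and CbG minus CTX. F tests, and the difference of CbG minus CTX from CA1 minus CA3, were called by the adjusted p alone. A probe set was tested where it exceeded the 50th percentile of the array in at least 8 of 12 arrays (7535 probe sets) or 7 of 10 (7463). Of the 13 member probe sets 7 passed, 1 for each gene except *Hmox1* and *Cp*. Those of *Tf*, *Fth1* and *Ftl1* are annotated to several genes, *Tf* together with *Srprb* and the ferritins together with pseudogenes or close copies, so that their signal cannot be given to 1 gene with certainty.

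Of the 7, *Tf* had the widest range, and its highest array was 15.1 times its lowest. The signal was 813.4, 312.9 and 302.9 in CA1 and 1270.6, 1949.4 and 811.9 in the arrays labelled CbG, against 1092.1, 773.5 and 2092.1 in those labelled CA3 and 3664.2, 4559.3 and 4434.4 in CTX. All 3 CTX arrays lay above the other 9 arrays. In the 2 arrays that went against their labels, the value in that labelled CbG replicate 3 lay within the range of the CA3 replicates 1 and 2, and that labelled CA3 replicate 3 lay just above CbG replicates 1 and 2. With the labels exchanged, the order by mean signal was CTX, CbG, CA3 and CA1. There was a gap between CTX and CbG, while CA3 and CA1 overlapped. CbG and CA3 were apart by signal but overlapped on the centred log2 scale. There CbG replicate 1 was at 2.76 and CA3 replicate 1 at 2.81.

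**Figure D1:**
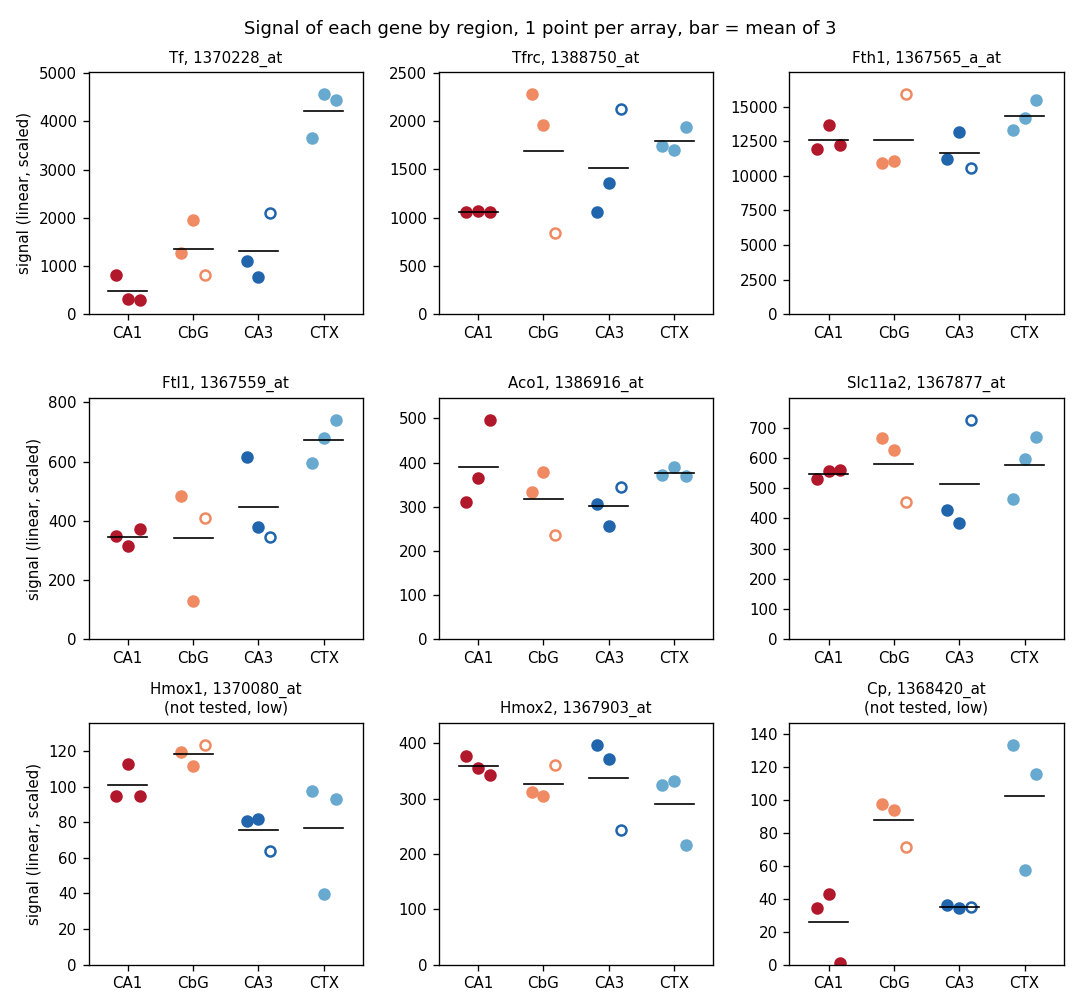
Signal on a linear scale (y axis) of the main probe set of each of the 9 genes in CA1, CbG, CA3 and CTX (x axis), with 1 point per array and a bar at the mean of the 3 arrays as labelled. Open points are the arrays labelled CbG replicate 3 and CA3 replicate 3. For *Tf*, the 3 CTX arrays sit between 3664.2 and 4559.3, above all others.

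Over the 12 arrays as labelled, the fitted log2 difference of *Tf*, VUL minus RES, was -1.54 ± 0.35 (SE, 2.91-fold) with an adjusted p of 0.169 in limma. The VUL array was the lower one in 6 of 6 within-rat pairs, and the share of all probe sets with such pairs as labelled was not counted. No probe set at all passed in this arrangement, with 0% of 7535 called higher and 0% called lower, although 443 were higher and 300 lower at an unadjusted p under 0.05. Leaving out a rat or an array as labelled gave no call of *Tf* except without rat 3 (-1.11, limma adjusted p = 0.0387), whose arrays include those in doubt. Over the 10 arrays *Tf* was 2.33-fold lower in VUL neurons (-1.22 ± 0.27, limma adjusted p = 0.00683) and was called. With labels exchanged it was 2.11-fold lower (-1.08 ± 0.24, limma adjusted p = 0.00504) and was also called. The study placed *Tf* in its own list of genes that differ between these groups, so that this probe set is not independent evidence of its direction. It also measured *Tf* by real-time PCR in the same RNA samples and reported a VUL to RES ratio similar to that of the array.

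Within the hippocampus, the difference of *Tf* between CA1 and CA3 was negative in all 3 arrangements and was called in none. The log2 difference was -1.52 ± 0.50 as labelled (limma adjusted p = 0.232), -1.06 ± 0.40 over 10 arrays (0.117) and -1.06 ± 0.35 with labels exchanged (0.0594). Between CbG and CTX it was -1.56 ± 0.50 as labelled (0.204), -1.38 ± 0.40 over 10 arrays (limma adjusted p = 0.0239) and -1.10 ± 0.35 with labels exchanged (0.0243), and the last 2 were called. The difference between these pairs was not called (-0.32 ± 0.59 over 10 arrays, 95% interval -1.60 to 0.96). Over 10 arrays, the CbG and CTX call was lost without rat 1 (limma adjusted p = 0.0504), without rat 3 (0.0696), and without CA1 replicate 3 (0.0750), CbG replicate 1 (0.223), CTX replicate 2 (0.118) or CTX replicate 3 (0.0745). The VUL and RES call was kept in each of these.

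Markers of oligodendrocytes, the cells that wrap axons in myelin, moved with *Tf*. The summed signal of the 9 of 10 listed markers with a probe set was 6905.0, 4462.9 and 4801.8 in CA1 and 17661.4 and 14573.5 in CbG replicates 1 and 2, against 13664.3 and 10165.9 in CA3 replicates 1 and 2 and 29518.9, 42625.0 and 44975.4 in CTX. It was 12785.9 in the array labelled CbG replicate 3 and 21104.6 in that labelled CA3 replicate 3. All 5 markers that passed the filter (*Mbp*, *Mag*, *Mobp*, *Cnp* and *Cldn11*) were lower in VUL neurons and called over 10 arrays (median log2 difference -1.18) and with labels exchanged (-1.18), and 0 were called as labelled, where all 5 had an unadjusted p under 0.05. None of the 9 was at 0 in any array, and *Ugt8* and *Mal* stayed below the array median in all 12. *Mobp*, a protein of compact myelin, had 838.1, 709.1 and 747.6 in CA1 and 2746.5 and 2497.2 in CbG replicates 1 and 2, against 2051.0 and 1306.0 in CA3 replicates 1 and 2 and 6096.3, 9767.1 and 10818.2 in CTX.

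Over the 12 arrays, Pearson's r between *Tf* and these 9 markers lay between 0.378 (*Ugt8*) and 0.959 (*Mog*), against a median of -0.32 between *Tf* and the 5775 genes compared, where the points share the array, its scaling and its tissue. The part of oligodendrocyte RNA in the *Tf* result was not tested. In such dissected tissue, fewer cells of a type and less RNA per cell cannot be told apart. *Srprb*, a receptor subunit of the endoplasmic reticulum that shares the *Tf* probe set's annotation, was not called on its own tested probe set. This had 2257.9, 3088.9 and 2775.7 in CA1 and 2479.5 and 2010.5 in CbG replicates 1 and 2, against 2529.0 and 2480.3 in CA3 replicates 1 and 2 and 1926.6, 1970.4 and 1619.8 in CTX. Its log2 difference VUL minus RES was 0.24 ± 0.16 over 10 arrays (limma adjusted p = 0.292). As labelled it was 0.31 ± 0.15 (limma adjusted p = 0.541), and 0.30 ± 0.13 with labels exchanged (0.109). Another probe set of *Srprb* had signals from 9.7 to 67.4 and was not tested. For the GAPDH control, the 3′ over 5′ signal (log2), which rises as RNA degrades or is cut short in amplification, was 1.55 to 2.21 in CA1 and 1.83 to 2.31 in CbG, against 1.31 to 2.08 in CA3 and 2.06 to 2.76 in CTX over the 10 arrays. For beta-actin it was 4.62 to 5.35 in CA1 and 3.88 to 6.52 in CbG, against 4.01 to 4.45 in CA3 and 4.13 to 5.13 in CTX. By this control CA1 lay above CA3 without overlap. The part of RNA quality in the *Tf* result was not tested.

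**Figure D2:**
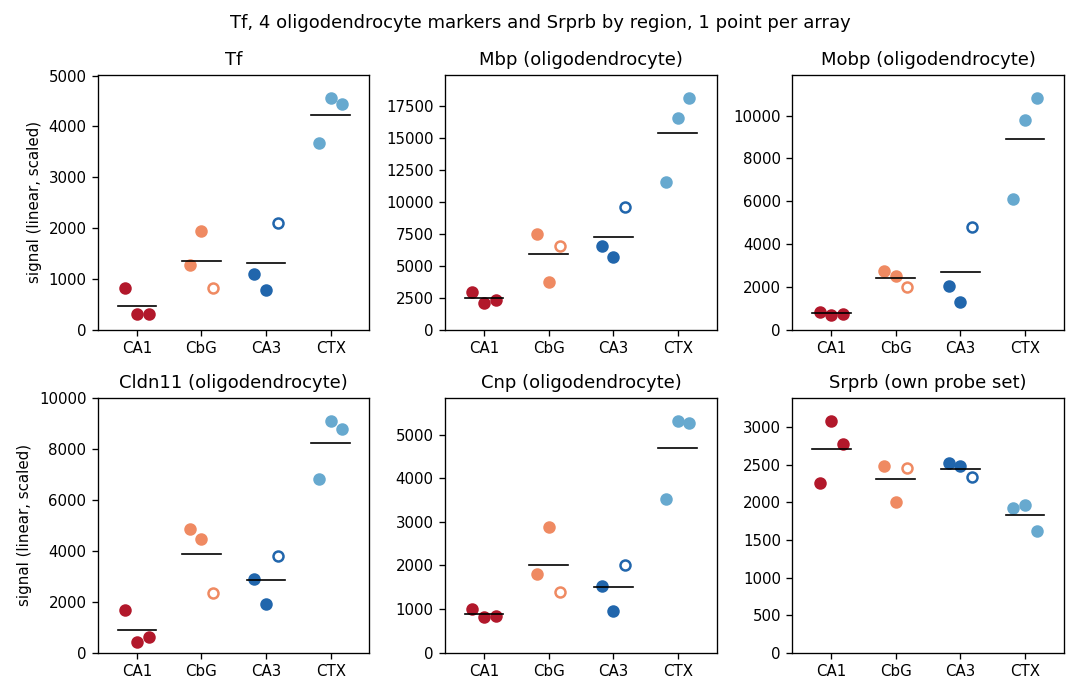
Signal on a linear scale (y axis) of *Tf*, of the oligodendrocyte markers *Mbp*, *Mobp*, *Cldn11* and *Cnp* and of *Srprb* on its own tested probe set, by region as labelled (x axis), with 1 point per array and a bar at the mean of 3. Open points are the arrays labelled CbG replicate 3 and CA3 replicate 3. By their means, *Tf* and the 4 markers are lowest in CA1 and highest in CTX, and *Srprb* is lowest in CTX.

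*Tfrc*, the receptor, had another pattern. Its main probe set had 1055.3, 1071.1 and 1057.2 in CA1 and 2278.9, 1957.2 and 842.9 in the arrays labelled CbG, against 1056.8, 1363.2 and 2130.4 in those labelled CA3 and 1744.0, 1699.3 and 1941.9 in CTX. Without the 2 arrays in doubt, the signals of the 5 arrays of CbG and CTX lay above those of the 5 of the hippocampus. On the centred log2 scale of the fit they overlapped, with CA3 replicate 2 at 3.24, against 3.16 and 3.19 in CTX replicates 1 and 2. The moderated F test for any difference among the 4 regions called 60.8% of all probe sets over 10 arrays. For *Tfrc* it gave a limma adjusted p of 0.68 as labelled, 0.0259 over 10 arrays and 0.00687 with labels exchanged. The call over 10 arrays was lost without rat 1, rat 3, any CA1 replicate, CbG replicate 1 or CTX replicate 3.

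None of the 3 differences fitted was called for *Tfrc*, and CbG or CTX against the hippocampal regions was not tested. The log2 difference between VUL and RES was -0.25 ± 0.26 as labelled, 0.08 ± 0.15 over 10 arrays (95% interval -0.24 to 0.40) and 0.20 ± 0.15 with labels exchanged, so that its sign turned with the arrangement. Between CbG and CTX it was -0.03 ± 0.37 as labelled, 0.41 ± 0.22 over 10 arrays (limma adjusted p = 0.190) and 0.43 ± 0.21 with labels exchanged (0.125). The other *Tfrc* probe set was above the array median in 1 of 12 arrays, with signals from 51.9 to 192.2, and was not tested. Endothelial cells of the brain also carry the receptor, and the summed signal of 5 of 6 endothelial markers was 372.1 to 618.6 in CA1 and 645.1 to 1274.4 in CbG, against 495.0 to 617.4 in CA3 and 1318.2 to 2075.7 in CTX over the 10 arrays, with *Pecam1* and *Flt1* below the array median in all 12. Their part in the *Tfrc* result was not tested.

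*Slc11a2*, the endosomal iron exporter, overlapped between the groups as labelled. On the main probe set it had 529.1, 555.5 and 560.7 in CA1 and 664.4, 625.6 and 452.8 in the arrays labelled CbG, against 427.5, 384.9 and 726.8 in those labelled CA3 and 463.5, 594.9 and 669.6 in CTX. The 2 arrays in doubt were the highest of those labelled CA3 and the lowest of those labelled CbG. Its difference VUL minus RES was 0.16 ± 0.18 on the log2 scale as labelled (limma adjusted p = 0.846), 0.35 ± 0.14 over 10 arrays (0.0962) and 0.40 ± 0.12 with labels exchanged, which reached an adjusted p of 0.0247 in limma but only 1.32-fold. Its other probe set stayed between 45.0 and 146.6 and was above the array median in 1 of 12 arrays.

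The 2 ferritin chains differed from each other in pattern. *Fth1*, the heavy chain with ferroxidase activity, had the narrowest range of the 7, with 11911.8, 13670.2 and 12209.7 in CA1 and 10904.5, 11058.6 and 15897.0 in the arrays labelled CbG, against 11213.0, 13208.5 and 10549.9 in those labelled CA3 and 13322.4, 14219.7 and 15464.1 in CTX. The highest array was 1.51 times the lowest. VUL minus RES was -0.12 ± 0.14 on the log2 scale over 10 arrays (95% interval -0.42 to 0.18), 0.04 ± 0.16 as labelled and -0.15 ± 0.12 with labels exchanged.

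*Ftl1*, the light chain that helps to lay down the iron core, had 349.5, 316.0 and 372.8 in CA1 and 482.9, 130.0 and 410.8 in the arrays labelled CbG, against 614.1, 377.6 and 343.8 in those labelled CA3 and 596.1, 678.4 and 741.9 in CTX. All CTX arrays lay above all arrays of the VUL group, and the lowest signal, in CbG replicate 2, stood below the other 11. VUL minus RES was -0.67 ± 0.28 on the log2 scale as labelled (limma adjusted p = 0.485), -0.90 ± 0.24 over 10 arrays (0.0165) and -0.75 ± 0.22 with labels exchanged (0.0190), and the last 2 were called lower. Between CbG and CTX the limma adjusted p was 0.276 as labelled, and the log2 difference was -1.21 ± 0.35 over 10 arrays (limma adjusted p = 0.0240) and -1.08 ± 0.31 with labels exchanged (0.0141).

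The *Ftl1* calls rested on few arrays. Over the 10 arrays without CbG replicate 2, VUL minus RES was -0.52 (limma adjusted p = 0.0652) and CbG minus CTX -0.44 (0.368), and without rat 2 they were -0.56 (0.0492, under 1.5-fold) and -0.27 (0.629). The VUL and RES call was also lost without rat 3 (0.0514) and without CA1 replicate 3 (0.0559), CA3 replicate 1 (0.0530), CA3 replicate 2 (0.0570) or CTX replicate 3 (0.0556), and the CbG and CTX call without rat 3 (0.0550), CA1 replicate 3 (0.0593), CTX replicate 2 (0.175) or CTX replicate 3 (0.0590). CbG replicate 2 is the array with the highest beta-actin ratio and the highest astrocyte and Purkinje cell marker sums. Markers of microglia, the macrophages of the brain, were highest in CTX, as was *Ftl1*, with a summed signal over 7 markers of 356.5 to 682.2 in CA1 and 896.6 and 688.9 in CbG replicates 1 and 2, against 624.3 and 411.4 in CA3 replicates 1 and 2 and 896.7 to 1513.3 in CTX, and 5 of the 7 were below the array median in all 12 arrays. The summed oligodendrocyte and endothelial markers were also highest in CTX over the 10 arrays. The 1 microglia marker tested was not called over 10 arrays, with a log2 difference of -0.08 in VUL minus RES and -0.17 in CbG minus CTX. The part of these values in the *Ftl1* result was not tested. Between CA1 and CA3 *Ftl1* was not called (-0.59 ± 0.35 over 10 arrays, limma adjusted p = 0.329).

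*Aco1*, the iron sensor, had 310.5, 364.3 and 497.1 in CA1 and 334.4, 379.5 and 236.4 in the arrays labelled CbG, against 305.6, 256.9 and 344.9 in those labelled CA3 and 371.9, 389.7 and 369.2 in CTX. The groups overlapped. The difference VUL minus RES was 0.12 ± 0.18 as labelled, 0.23 ± 0.17 over 10 arrays (95% interval -0.13 to 0.59) and 0.31 ± 0.15 with labels exchanged on the log2 scale, and the smallest limma adjusted p of these was 0.149. *Ireb2*, the other iron regulatory protein, was below the array median in all 12 arrays.

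Of the heme oxygenases, *Hmox2* passed the filter. It had 377.6, 354.9 and 342.3 in CA1 and 312.8, 305.3 and 361.7 in the arrays labelled CbG, against 397.4, 371.4 and 243.4 in those labelled CA3 and 324.7, 332.3 and 216.5 in CTX. Without the 2 arrays in doubt, the signals of the 5 hippocampal arrays lay above those of the 5 of CbG and CTX, while for *Tfrc* they lay below. Hippocampus against the other regions was not tested, and the share of all probe sets that separate so was not counted. Over 10 arrays the F test called 60.8% of all probe sets. The F test gave a limma adjusted p of 0.337 as labelled, 0.0278 over 10 arrays and 0.00848 with labels exchanged, and the call over 10 arrays was lost without rat 1, rat 3, CA1 replicate 1 or 3, CA3 replicate 1 or 2, or CTX replicate 1 or 3, and with no centring or quantile normalization. Its VUL minus RES difference was 0.23 ± 0.19 as labelled, 0.05 ± 0.16 over 10 arrays (95% interval -0.29 to 0.39) and 0.05 ± 0.13 with labels exchanged on the log2 scale.

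*Hmox1*, the stress-inducible enzyme, lay below the array median in all 12 arrays and was not tested, with 94.8, 112.8 and 94.9 in CA1 and 119.3, 111.9 and 123.6 in the arrays labelled CbG, against 80.7, 81.9 and 63.9 in those labelled CA3 and 97.8, 39.6 and 93.3 in CTX. As labelled it was higher in VUL neurons in 6 of 6 within-rat pairs, over 10 arrays in 4 of 4, and with labels exchanged in 4 of 6. How many of all probe sets do so was not counted. *Cp* was also below the array median in all arrays on each of its 3 probe sets, with signals from 0.8 to 133.6 on the brightest. There CbG replicates 1 and 2 had 97.6 and 93.9 and CTX had 133.6, 57.7 and 116.1, while the highest signals were 42.8 in CA1 and 36.0 in CA3. The array labelled CbG replicate 3 had 71.6, and with labels exchanged CbG and CA3 overlapped. The 2 other *Cp* probe sets did not exceed 111.4 and 63.1. On both of them CA1 overlapped CbG and CTX over the 10 arrays. The first had 52.8, 54.0 and 7.3 in CA1, against 111.4 and 15.0 in CbG replicates 1 and 2 and 77.7, 11.4 and 14.7 in CTX.

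Counted together, 0 of 7 tested member probe sets were called higher and 0 lower as labelled between VUL and RES, CA1 and CA3, or CbG and CTX by limma, while at an unadjusted p under 0.05 there were 2, 1 and 2 lower ones and 0 higher. At that p, 300, 487 and 355 of all 7535 probe sets were lower and 443, 417 and 818 higher. Over all probe sets, 0.624% were called higher and 0.677% lower in CA1 than in CA3, and 0.332% higher and 0.292% lower in CbG than in CTX. Over 10 arrays 2 members were lower in VUL neurons (*Tf* and *Ftl1*) and 0 higher, against 9.17% lower and 8.66% higher of all 7463. With labels exchanged the same 2 were lower, against 8.29% lower and 10.2% higher of all 7535. The median log2 difference of the 7 was 0.05 over 10 arrays, against 0.04 over all probe sets.

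Between CbG and CTX, *Tf* and *Ftl1* were lower over 10 arrays, against 12.2% lower and 14.1% higher of all, and with labels exchanged, against 13% lower and 20.9% higher. Between CA1 and CA3, 0 members were called over 10 arrays, where 5.48% of all were higher and 5.02% lower, and 0 with labels exchanged, where 7.51% were higher and 6% lower. At an unadjusted p under 0.05, 1 member was lower in CA1 over 10 arrays, where 908 of all 7463 probe sets were higher and 930 lower. With labels exchanged 2 members were higher at that p (*Aco1* and *Slc11a2*) and 1 lower (*Tf*). There 1108 of all 7535 were higher and 954 lower. The F test among the 4 regions called 0 members as labelled, where 3.2% of all were called, 4 over 10 arrays (*Tf*, *Tfrc*, *Ftl1* and *Hmox2*), where 60.8% of all were called, and 5 with labels exchanged (the same 4 and *Slc11a2*, limma adjusted p = 0.0485), where 67.9% were called. For *Tf* this p was 0.0512 as labelled and 0.000144 over 10 arrays. The share of members called by the F test was thus near that of all probe sets. VUL minus RES is the mean of the other 2 differences, so that these counts share arrays.

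**Figure D3:**
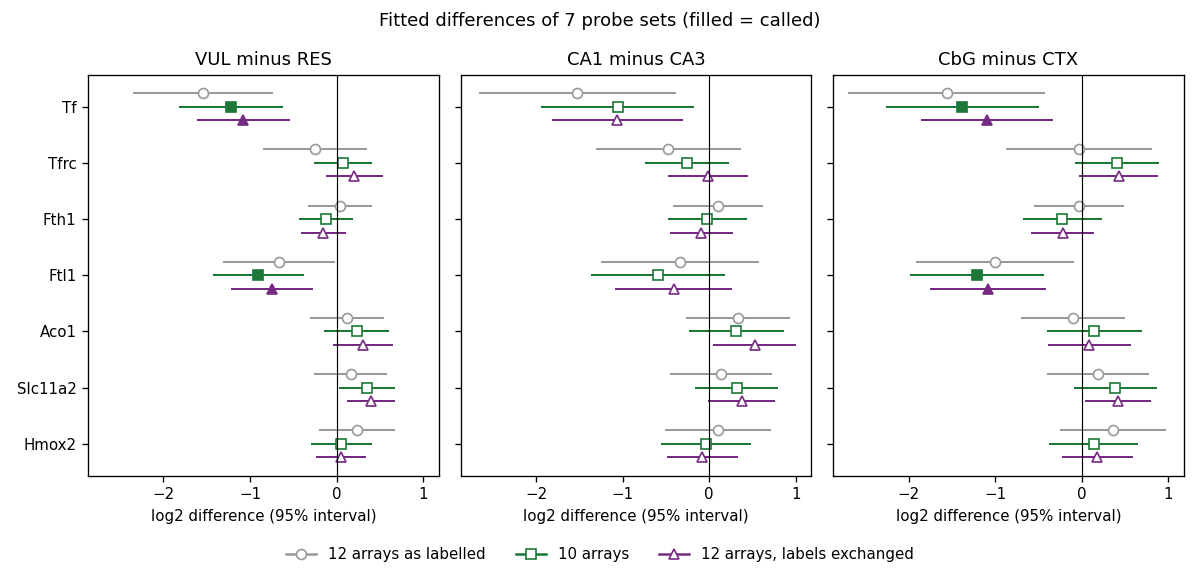
Fitted log2 differences (x axis) of the 7 tested member probe sets (y axis) for VUL minus RES, CA1 minus CA3 and CbG minus CTX, with 95% intervals as lines. Circles are the 12 arrays as labelled, squares the 10 arrays and triangles the 12 arrays with labels exchanged, and filled marks are called. Only *Tf* and *Ftl1* have filled marks, over 10 arrays and with labels exchanged, in VUL minus RES and CbG minus CTX.

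The genes whose profile over the 12 arrays was most like that of a member were taken among 5775 genes with a tested probe set of their own, by Pearson's r of the log2 signals. For *Tf* they were *Bcas1* (r = 0.966), *Plxnb1* (0.965) and *Apod* (0.965). For *Tfrc* they were *Arhgap17* (0.949), *Natd1* (0.927) and *Thtpa* (0.922), and for *Slc11a2* *Fam53b* (0.922), *Parp2* (0.917) and *Ddx39b* (0.916). For *Fth1* they were *Fsd1l* (0.975), *Eri3* (0.903) and *Usp30* (0.899), for *Ftl1* *Tp53inp2* (0.927), *Anxa5* (0.892) and *Sema5a* (0.872), and for *Aco1* *Snx18* (0.858), *Zfta* (0.821) and *Vps39* (0.817). For *Hmox2* they were *Etf1* (0.960), *Ormdl2* (0.954) and *Aamp* (0.945). Among the members themselves r lay between -0.71 (*Tfrc* with *Fth1*) and 0.54 (*Tf* with *Tfrc*).

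Other genes of iron and heme handling were counted on 7 lists with 68 genes, of which 49 had a probe set of their own and 30 were tested. As labelled limma called 0 between VUL and RES, CA1 and CA3, or CbG and CTX, where 5, 1 and 5 had an unadjusted p under 0.05. At that p, 443, 417 and 818 of all 7535 probe sets were higher and 300, 487 and 355 lower. Over 10 arrays 2 list genes were higher in VUL neurons, *Hif1a* and *Nfu1*, and 2 lower, *Hebp1* and *Slc48a1*. There 8.66% of all probe sets were higher and 9.17% lower. The same 4 were called with labels exchanged, where these shares were 10.2% and 8.29%. Between CA1 and CA3 limma called 0 over 10 arrays and 0 with labels exchanged, where 5 and 4 had an unadjusted p under 0.05. At that p, 908 of all 7463 probe sets were higher and 930 lower over 10 arrays. With labels exchanged 1108 of all 7535 were higher and 954 lower. Between CbG and CTX 5 list genes were higher (*Hif1a*, *Urod*, *Steap2*, *Ncoa4* and *Fbxl5*) and 3 lower (*Hebp1*, *Slc48a1* and *Mt3*) over 10 arrays. There 14.1% of all were higher and 12.2% lower. With labels exchanged 8 were higher, with *Slc39a14*, *Pcbp1* and *Pcbp2* added, and 3 lower, where 20.9% of all were higher and 13% lower. The counts between CbG and CTX were thus near the shares of all probe sets. The median log2 difference of the 30 in VUL minus RES over 10 arrays was 0.04, against 0.04 over all probe sets.

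*Hif1a* is the oxygen-regulated subunit of a hypoxia-inducible factor that acts on TF and TFRC in cultured human cells. The study also lists *Hif1a* among its genes higher in VUL neurons. It had 1548.5, 1599.1 and 1669.3 in CA1 and 3247.0 and 3076.4 in CbG replicates 1 and 2, against 1241.4 and 814.7 in CA3 replicates 1 and 2 and 1328.2, 1620.7 and 1428.8 in CTX. The arrays labelled CbG replicate 3 and CA3 replicate 3 had 1652.7 and 3414.6. The CbG arrays stood above the others in these 10. VUL minus RES was 0.94 ± 0.16 on the log2 scale (limma adjusted p = 0.00152) and CbG minus CTX 1.27 ± 0.24 (0.0025) over 10 arrays, 0.88 ± 0.15 (limma adjusted p = 0.000657) and 1.34 ± 0.21 (0.000263) with labels exchanged, and 0.53 ± 0.32 (0.674) and 0.98 ± 0.46 (0.34) as labelled.

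*Hebp1*, a heme-binding protein, had its lowest signals among the 10 arrays in CbG. The signal was 177.4 and 179.7 in CbG replicates 1 and 2, against 1090.9, 768.7 and 695.3 in CTX, while it was 1431.2, 957.2 and 1318.4 in CA1, against 1308.7 and 1230.9 in CA3 replicates 1 and 2. The arrays labelled CbG replicate 3 and CA3 replicate 3 had 1432.8 and 68.0. Over 10 arrays CbG minus CTX was -2.12 ± 0.27 (limma adjusted p = 0.000127) and CA1 minus CA3 -0.07 ± 0.27 (0.902) on the log2 scale, and the test of the difference between these pairs was called (-2.05 ± 0.39, 0.00381). Over all probe sets that test called 6.89% higher and 7.97% lower over 10 arrays, 13.3% and 10.8% with labels exchanged, and 1.07% and 0.995% as labelled, and it called 0 of the 7 members in each. That test was also called for *Urod*, an enzyme of heme synthesis (1.28 ± 0.34, limma adjusted p = 0.0265), which had 1241.0 and 1563.2 in CbG replicates 1 and 2, against 761.9, 608.4 and 637.6 in CTX.

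*Slc48a1*, which carries heme out of lysosomes, was lower in VUL neurons, with 250.7, 265.5 and 294.6 in CA1 and 308.1 and 195.3 in CbG replicates 1 and 2, against 353.9 and 548.7 in CA3 replicates 1 and 2 and 485.1, 482.7 and 630.3 in CTX. In these 10 arrays the groups did not overlap, and the share of all probe sets that separate so was not counted. By limma 9.17% of all probe sets were called lower. VUL minus RES was -0.86 ± 0.18 on the log2 scale over 10 arrays (limma adjusted p = 0.00471) and -0.56 without rat 2 (0.0499, under 1.5-fold). *Nfu1*, a carrier of iron-sulfur clusters, was higher in VUL neurons by 0.76 ± 0.19 (limma adjusted p = 0.0147), a call lost without CbG replicate 2 (0.48, limma adjusted p = 0.0648) and without rat 2, rat 3, CA1 replicate 3, CA3 replicate 2 or CTX replicate 3. It had 475.9, 506.7 and 518.5 in CA1 and 394.4 and 753.1 in CbG replicates 1 and 2, against 261.1 and 261.0 in CA3 replicates 1 and 2 and 438.8, 388.4 and 347.9 in CTX. *Mt3*, the metallothionein of neurons and astrocytes, was lower in CbG than in CTX (-0.99 ± 0.24, limma adjusted p = 0.0105), a call lost without rat 2 (-0.62), CbG replicate 2 or CTX replicate 2. It had 1301.7 and 922.2 in CbG replicates 1 and 2, against 2213.2, 2784.9 and 2285.8 in CTX. As labelled VUL minus RES was -0.66 for *Slc48a1* (limma adjusted p = 0.305) and 0.60 for *Nfu1* (0.394). There CbG minus CTX was -0.41 for *Mt3* (limma adjusted p = 0.785), 0.71 for *Ncoa4* (0.140) and 0.99 for *Urod* (0.160). For *Fbxl5* it was 0.47 (limma adjusted p = 0.524) and for *Steap2* 0.18 (0.929). The other fitted values of this paragraph are over 10 arrays. *Ncoa4*, the receptor that sends ferritin to the lysosome, was higher in CbG than in CTX by 0.75 ± 0.21 (limma adjusted p = 0.0213), a call lost without rat 1, rat 2, CbG replicate 2, CTX replicate 1 or CTX replicate 2. Between CbG and CTX the call of *Fbxl5* held in 9 of 22 alternatives and that of *Steap2* in 16 of 22. The call of *Fbxl5* was lost with each rat left out, without CA1 replicate 3, CA3 replicate 1 or 2, CbG replicate 2 (0.47) or each of the CTX replicates, and with quantile normalization, no centring or no filter. That of *Steap2* was lost without rat 3, CA1 replicate 3, CbG replicate 2 (0.69, limma adjusted p = 0.229), or CTX replicate 1 or 3, and with no filter. The call of *Urod* was lost without rat 2, and that of *Slc48a1* without rat 2, rat 3, CA1 replicate 3, CbG replicate 2 or any CTX replicate. The calls of *Hif1a* and *Hebp1* were kept in VUL minus RES and CbG minus CTX without each rat or array that left them tested.

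**Figure D4:**
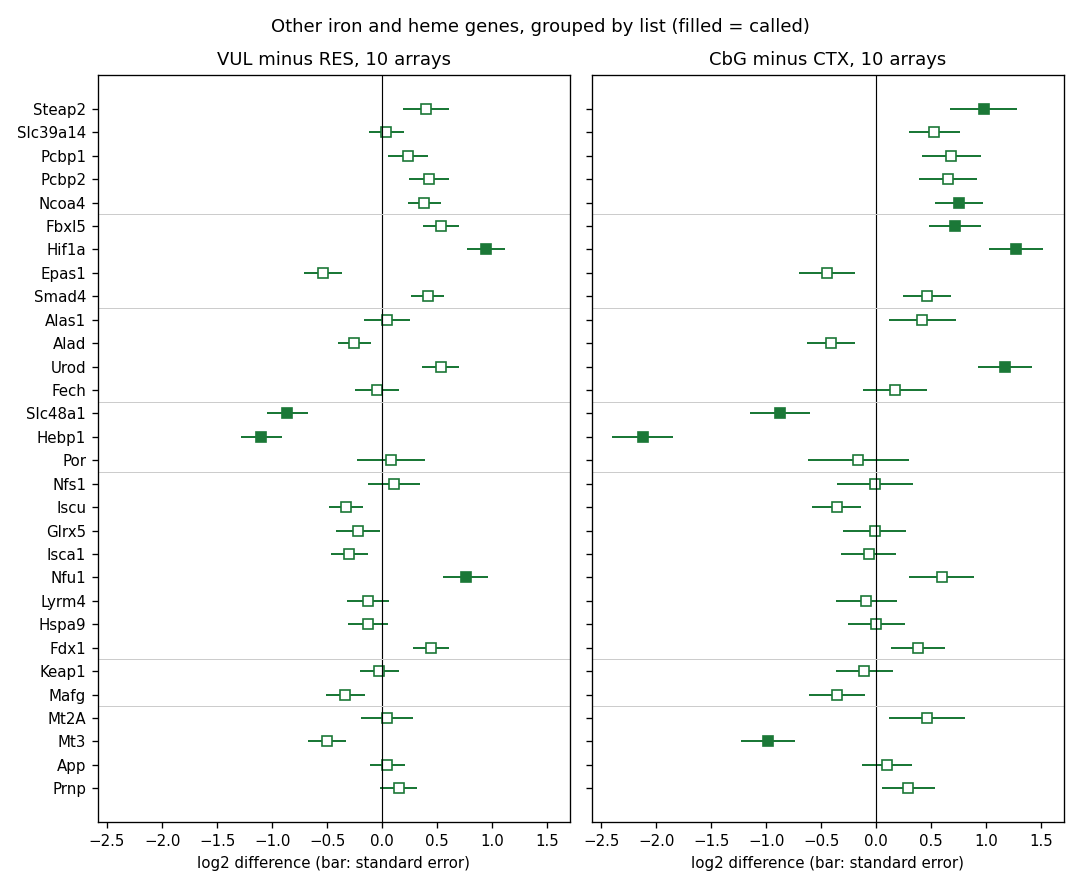
Fitted log2 differences (x axis) over 10 arrays of the 30 tested iron and heme genes (y axis, lines between lists), for VUL minus RES and CbG minus CTX, with standard errors as lines and filled marks for called genes. From top to bottom the lists are iron transport and reduction, iron sensing, heme synthesis, heme handling and breakdown, iron-sulfur clusters, *Hmox1* regulators, and metallothioneins with iron-binding precursors. *Hebp1* in CbG minus CTX has the largest difference (-2.12).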

How the data were processed

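RNA of laser-captured neurons from 4 regions was measured on 12 arrays. The authors deposited MAS5 signal intensities on a linear scale, with each array scaled to 1 target. The MAS5 version is not given in the sources used here. The number of arrays limits the precision. All columns were matched to a sample.

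The 57 control probe sets were removed, leaving 15866. Symbols came from the array's gene table, updated through Entrez IDs (1 symbol for 12783 probe sets, several for 312). The *Tf* probe set is that of the study's own list. Fits used limma 3.58.1 under R 4.3.3 as described above, with log2 signals. Standard errors and 95% intervals are from the fit. Where a gene had several probe sets, the one with the highest mean signal was taken as the main one. All member probe sets and the called list genes were named.

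Replicate numbers were read as rats, since per the methods all 4 regions were taken from each animal, although no label ties a number to an animal. Over 10 arrays the deviations from region means had a mean correlation of 0.117 between arrays of the same rat (13 pairs, 8 over 0.1), against -0.0635 otherwise. The members, lists and the 3 arrangements were chosen with earlier results of these data known.

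Alternatives were quantile normalization, no centring, 50 added or set as a floor before log2, other filters, a trend and robust prior, no replicate block, leaving out each rat or array, and the methods' paired test. Those run over the 10 arrays and for the list genes were added after seeing the data.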

Additional observations from a re-analysis of the deposited data

How the results depend on the processing

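As labelled, the count of member probe sets called by the F test among the 4 regions was 0, and 1 (*Tf*) with quantile normalization, no centring, 50 added, the filter in all arrays, the trend and robust prior, or no replicate block. The methods' paired test at its unadjusted p and fold threshold called 1 member (*Tf*) between VUL and RES as labelled and 1 over 10 arrays, and 0 after Benjamini-Hochberg adjustment in both, where 196 and 600 of all probe sets passed unadjusted and 0 and 0 adjusted. With labels exchanged it called 1 (*Tf*) both ways, with an adjusted p of 0.0474 for the methods' paired test, and 915 of all passed unadjusted and 194 adjusted. The 10 arrays gave 2 members for VUL minus RES, 2 for CbG minus CTX and 4 for the F test, and exchanged labels gave 2, 2 and 5. For the list genes the 10 arrays gave 4 (VUL minus RES) and 8 (CbG minus CTX), and exchanged labels 4 and 11. *Hebp1* in VUL minus RES was 0.14 as labelled and turned sign to -1.22 without replicate 3, -1.10 over 10 arrays and -1.32 with labels exchanged, and leaving out a rat or an array as labelled gave -1.22 to 0.82. Leaving out a rat or an array as labelled gave 0 to 1 members for VUL minus RES, 0 to 1 for the F test, and 0 to 3 list genes for VUL minus RES and 0 to 5 for CbG minus CTX.

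Over 10 arrays, 0 members (VUL minus RES), 0 (CbG minus CTX) and 1 (F test) were called with no filter, where more probe sets are tested, and 0 and 1 list genes. With the filter in all arrays 1 and 1 members were called, since *Ftl1* was not tested there, and the trend and robust prior left 1 (*Ftl1*) for CbG minus CTX. For CA1 minus CA3, 1 list gene (*Nfu1*) was called with no centring and 1 with 50 added, and 2 with the filter in all arrays. Leaving out a rat or an array gave 1 to 2 members for VUL minus RES, 0 to 1 for CA1 minus CA3 (*Tf* without rat 1 or CA1 replicate 1), 0 to 2 for CbG minus CTX, 0 to 1 for the difference between the pairs (*Ftl1* without rat 1 or CbG replicate 1) and 1 to 4 for the F test. For list genes these ranges were 3 to 7, 0 to 2 and 4 to 10. With no replicate block over 10 arrays the members called by VUL minus RES and CbG minus CTX stayed 2 and 2. Where 1 array of a region remained, limma takes its spread from the other regions. *Tf* was lower in VUL neurons in all 22 alternatives over 10 arrays and called in 21, from -1.53 to -0.90. With no centring or quantile normalization the median log2 difference of all probe sets in CbG minus CTX was -0.02 and 0.02 over 10 arrays, against 0.12 centred, and with no centring *Hmox2* in CbG minus CTX (0.14 centred) lay at -0.004. The uncalled differences of *Fth1* in VUL minus RES as labelled and in CA1 minus CA3 over 10 arrays also turned sign with both scalings.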
